A study of Mus musculus with 11 samples.

Results

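The colony stimulating factors and their receptors were followed in mouse RAW cells, a transformed macrophage line, that carried either a control hairpin RNA (shC) or a hairpin against GIV (shGIV). GIV, also called Girdin, is the product of Ccdc88a, a scaffold that couples receptors to G proteins, and the series asks about its role in the response to lipopolysaccharide (LPS), the bacterial product sensed by Toll-like receptor 4. Cells of both lines were taken without LPS (0 h) or 5 h into LPS at a dose of 100 ng/ml. Members were chosen by symbol: the ligands Csf1, Csf2 and Csf3 and the receptor chains Csf1r, Csf2ra, Csf2rb, Csf2rb2 and Csf3r, which makes 8 of the 52143 genes in the table, and all 8 were among the 13711 genes tested. The design has 4 groups, and 10 libraries entered the table: control cells without LPS (replicates 1, 2 and 3), control cells with LPS (replicate 2 alone), GIV-depleted cells without LPS (replicates 1, 2 and 3) and GIV-depleted cells with LPS (replicates 1, 2 and 3). The labels do not say whether a line is 1 clone or a pool, or whether replicates were separate cultures, so p-values measure only the spread between these libraries.

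CSF1, CSF2 and CSF3 are the secreted proteins also known as M-CSF, GM-CSF and G-CSF. CSF1 acts through the receptor tyrosine kinase CSF1R, on which most macrophages depend for survival and growth. CSF2 acts through a private alpha chain, CSF2RA, and the beta common chain, CSF2RB. CSF2RB2 is a mouse beta chain used by IL-3. CSF3 acts through CSF3R, best known on neutrophils and their precursors. The CSF2 and CSF3 receptors have no kinase of their own and signal through JAK2 and STAT proteins. Activated macrophages are a known source of the ligands.

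Control replicate 2 without LPS stood apart, with Mir6236 at 57.8% of its TPM (a transcript level corrected for gene length and scaled to a fixed total per library) against 3.79% to 8.78% elsewhere, and mitochondrial genes at 0.263% against 3.61% to 8.32%. Its values are given apart, and the tests used the other 9 libraries. The macrophage markers Adgre1, Cd68, Itgam, Lyz2, Cd14, Ptprc, Fcgr1 and Mpeg1 were all above 1 TPM in these libraries. With LPS 6 of the 8 rose in each line (median log2 difference 1.05 and 0.97), while Lyz2 fell in both and Cd68 fell in depleted cells. Lyz2, at 7974 to 15913 TPM, made up most of their summed level, which was 18917 to 19254 TPM in control cells and 17669 to 18230 in depleted cells without LPS, 14952 in the control library with LPS, and 12394 to 12962 in the depleted ones. Of the 10 neutrophil and progenitor markers, Ctsg and S100a9 were listed at 0 and Ly6g reached at most 0.110 TPM. Their sum, 1.43 to 4.43 TPM without LPS and 13.8 to 17.9 TPM with it, came mainly from S100a8 (1.07 to 17.3 TPM). Markers of fibroblasts and endothelium summed to at most 2.42 TPM, and those of lymphocytes and epithelium to at most 1.09 TPM. Ccdc88a stood at 10.0 and 7.69 TPM in control cells and 6.93, 5.31 and 5.58 TPM in depleted cells without LPS. With LPS it stood at 5.77 TPM in the control library and 3.08, 2.62 and 3.39 TPM in the depleted ones. In the tested libraries the groups did not overlap at either time, but neither log2 difference passed the test (-0.50 ± 0.15 SE, limma adjusted p = 0.232, and -0.75 ± 0.19, adjusted p = 0.0681). The share of all genes without overlap between the lines was not counted. With LPS a lone control library often lies outside the range of the depleted ones without any difference. Lack of overlap, here and for the members below, is therefore only a description. The control library kept apart had 1.18 TPM, below the depleted libraries without LPS. With it in the fit the difference without LPS was 0.22.

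Without LPS the family was a receptor program led by Csf1r, with the ligands near or at 0. After LPS, Csf1, Csf2 and Csf3 rose in both lines, Csf1r fell in both, and Csf2ra, Csf2rb and Csf3r rose in both. Csf2rb2 passed the test in neither line. In limma's test at an adjusted p under 0.05, 6 members were higher and 1 lower among 8 in control cells, where 58.9% of all tested genes were called (14.8% higher and 44.1% lower). The counts were again 6 higher and 1 lower in depleted cells, where 75.5% of genes were called (15.8% higher and 59.7% lower). Csf1, Csf2 and Csf3 lay below the filter in each library without LPS and were tested only because they are high with LPS, so their 3 calls in each line follow from the filter, and the counts and medians over the members are a description. The median log2 difference of the members was 1.25 in control cells and 1.18 in depleted cells, beside -0.40 and -0.54 over all tested genes. That split of calls depended on scaling. Under TMM scaling computed from TPM, the higher calls made up 49.5% of all calls in control cells and 46.9% in depleted cells, in place of 25.1% and 20.9%, and under quantile normalization they made up 40.6% and 40.2%. The members called in both lines kept their direction and their calls under these scalings. With control replicate 2 without LPS added, 3 members (the ligands) were called in control cells, and 5 in depleted cells (the ligands, Csf1r and Csf3r).

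**Figure D1:**
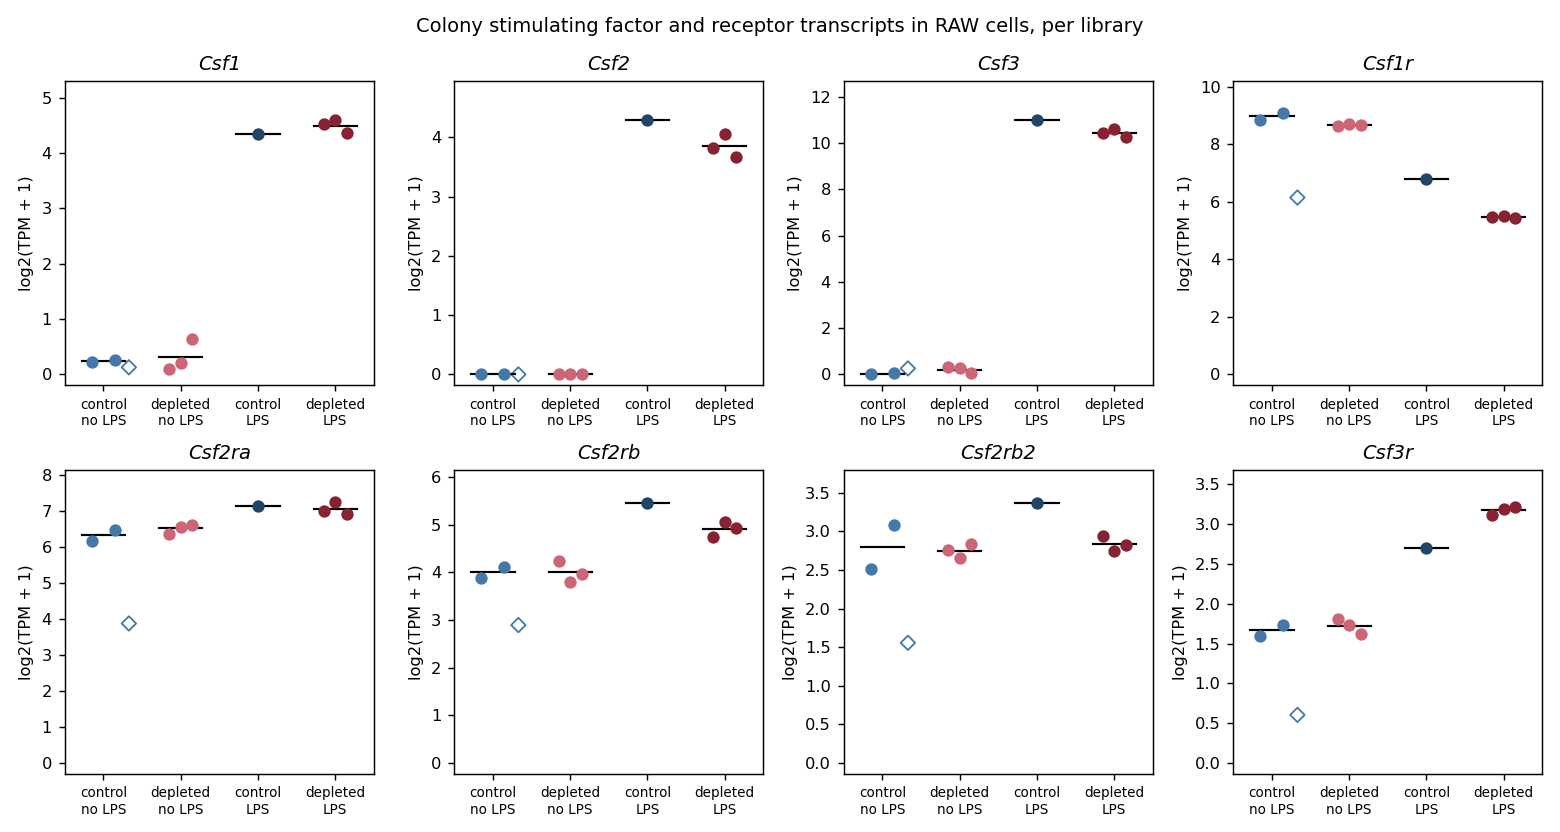
Level of each member in each library, as log2(TPM + 1), by line and LPS. Dots are libraries, bars the mean of the libraries that entered the tests, and open diamonds control replicate 2 without LPS, kept apart. Csf1, Csf2 and Csf3 lie near 0 without LPS and high with it, and Csf1r falls in both lines.

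Among the ligands, Csf3 (ENSMUSG00000038067, GRCm38 chromosome 11, 98701263 to 98703629, plus strand) moved from the edge of detection to the most abundant transcripts of the cell. Without LPS its level was 0 and 0.0472 TPM in control cells and 0.247, 0.199 and 0.0346 TPM in depleted cells, and the library kept apart had 0.194 TPM. With LPS its level was 2015 TPM in the lone control library, against 1384, 1540 and 1233 TPM in the depleted libraries. It was then the gene with rank 65 by TPM in the control library and with ranks 101, 91 and 120 in the depleted ones, and took 0.201% of TPM against 0.123% to 0.154%. The log2 rise was 10.94 ± 0.15 (SE) in control cells and 10.22 ± 0.10 in depleted cells (limma adjusted p = 1.93e-08 and 7.20e-10). Its call in each line follows from the filter, as said above. From a start this near 0 the size of the rise is set by the 1 added to TPM, and with 0.1 added it was 14.02 and 12.48. With LPS, Csf3 made up 98.2% of the summed ligand TPM in the control library and 97.5% in the depleted ones. The 3 depleted libraries lay below the control library, at a mean of 68.8% of its TPM. That difference of -0.55 ± 0.14 on the log2 scale did not pass the test (adjusted p = 0.0749), and neither did the difference between the rises, -0.72 ± 0.18 (adjusted p = 0.125), which was -1.53 with 0.1 added.

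Csf2 (ENSMUSG00000018916, chromosome 11, 54247271 to 54249667, minus strand) was listed at 0 in each library without LPS, the one kept apart included, and had 18.5 TPM in the control library with LPS. The depleted libraries with LPS had 13.2, 15.6 and 11.8 TPM, all below the control library. The rise was called in both lines (limma adjusted p = 1.11e-06 and 7.73e-08), calls that follow from the filter, as for the other ligands. No fold is given because the starting level is listed at 0. The difference between lines with LPS, -0.43 ± 0.17, did not pass the test (adjusted p = 0.191). The antisense gene Gm12223 overlaps Csf2 over 2068 bp. The libraries keep strand, but whether reads were assigned by strand was not tested. Gm12223 was listed at 0 in 8 of the 9 tested libraries and at 0.343 TPM in depleted replicate 3 with LPS.

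Csf2 and Csf3 transcripts are known for AU-rich elements, short repeats in the 3′ untranslated region through which proteins such as tristetraprolin (Zfp36) shorten the life of an mRNA. The densest 30-base stretch of ATTTA copies in each is shown because both transcripts came up from near 0 within 5 h. The letters are those of the GENCODE M21 transcripts on GRCm38, with ATTTA in capitals. They lie at chr11:54247329-54247358 on the minus strand, bases 230 to 259 of the 317-base region of Csf2, and at chr11:98702984-98703013 on the plus strand, bases 24 to 53 of the 669-base region of Csf3.
Csf2: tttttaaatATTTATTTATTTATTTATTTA
Csf3: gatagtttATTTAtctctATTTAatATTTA

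The Csf2 stretch holds 5 overlapping copies, and 0.271% of 21010 genes with an annotated region have as many within 30 bases. The Csf3 stretch holds 3, which 2.57% of genes reach. Over the whole longest region, Csf2 has 9 copies, Csf3 6, Csf1 4 in 2111 bases and Csf1r 3 in 1669 bases. Csf2ra, Csf2rb, Csf2rb2 and Csf3r have 0, and the median gene has 1. At least 1 copy occurs in 65.2% of genes. Over the whole region, 8.57% of genes have as many as Csf2, 16.9% as many as Csf3, 27.98% as many as Csf1 and 35.6% as many as Csf1r. These are matches of letters, and mRNA decay was not measured.

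Csf1 (ENSMUSG00000014599, chromosome 3, 107741048 to 107760469, minus strand) had 0.173 and 0.204 TPM in control cells, 0.0740, 0.157 and 0.561 TPM in depleted cells without LPS, and 0.0929 TPM in the library kept apart. With LPS it had 19.4 TPM in the control library and 22.1, 23.2 and 19.7 TPM in the depleted ones. The log2 rises of 4.10 ± 0.23 and 4.18 ± 0.15 were both called (limma adjusted p = 4.42e-06 and 1.51e-07). Here too the calls follow from the filter and the size depends on the 1 added to TPM. With 0.1 added the rises were 6.08 and 6.13. The lines differed in Csf1 by 0.07 without LPS (95% confidence interval -0.32 to 0.46) and by 0.15 with it (adjusted p = 0.739). Unlike Csf2 and Csf3, its 3 depleted libraries with LPS lay above the control library. Of the 5 members with a window in the RefSeq table, it is the one with most matches to a motif of NF-kappaB, the transcription factor that LPS activates. The 250 bases before its start in RefSeq (GRCm38.p6, chr3:107760470-107760719, minus strand) are shown with matches to the motif, GGGA and CC with any 4 bases between, on either strand in capitals.
Csf1 upstream: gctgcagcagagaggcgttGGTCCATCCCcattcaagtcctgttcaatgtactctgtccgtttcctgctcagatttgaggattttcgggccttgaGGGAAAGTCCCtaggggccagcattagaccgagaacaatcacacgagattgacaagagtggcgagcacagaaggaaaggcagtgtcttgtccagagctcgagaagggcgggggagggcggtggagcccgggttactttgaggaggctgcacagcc

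The matches begin at -231 on the minus strand of the window, at -155 on its plus strand and at -154 on its minus strand, and the last 2 overlap. A RefSeq window of 250 bases before to 50 after the start was matched for 5 of the 8 members (Csf1, Csf2, Csf2ra, Csf2rb2 and Csf3r). The motif occurred once in Csf3r, at -129, and once in Csf2, at 23 after a start that lies 232 bases upstream of the GENCODE start. It was found in neither Csf2ra nor Csf2rb2. Of 32851 windows, 20.7% hold it. The AP-1 motif TGANTCA, held by 7.81% of windows, was in none of the 5. The PU.1 motif GAGGAA, held by 28.3%, was in the windows of the receptor genes Csf2ra (2 matches), Csf2rb2 (2) and Csf3r (1) and in neither ligand gene. The C/EBP motif TTNCNNAA, held by 40.7%, did not split this way. It was in the windows of the ligand gene Csf2 (1 match) and the receptor genes Csf2ra (1) and Csf2rb2 (2). The TATA box motif TATAAA, held by 13.6%, was in none of the 5. These letters are a description, and binding was not measured.

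Csf1r (ENSMUSG00000024621, chromosome 18, 61100598 to 61132149, plus strand) encodes the receptor of CSF1 and of IL-34. Without LPS control cells had 458.6 and 541.2 TPM and depleted cells 395.6, 413.7 and 408.3 TPM, which put it at percentiles 97.7 to 98.2 of the tested genes. With LPS the control library had 108.6 TPM and the depleted libraries 42.8, 44.6 and 41.8 TPM, at percentile 90.8 against 81.2 to 82.2. No 2 of the 4 groups overlapped. Control cells kept 21.7% of their level and depleted cells 10.6%, falls of 2.19 ± 0.10 and 3.21 ± 0.07 on the log2 scale (limma adjusted p = 2.07e-06 and 1.26e-08). The library kept apart had only 69.7 TPM of Csf1r. With it in the fit, the change in control cells was -1.25 (adjusted p = 0.844), while that in depleted cells was still called (adjusted p = 0.0267). In total RNA, fewer cells of a type and less RNA per cell cannot be told apart. Hmgxb3, which overlaps Csf1r over 873 bp on the opposite strand, did not fall with it, at 8.02 to 10.3 TPM without LPS and 9.48 to 11.3 TPM with LPS.

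Between the lines, Csf1r had the largest difference among the members. With LPS it was the 1 member of 8 called between the lines, at 39.6% of the control library's TPM and a log2 difference of -1.32 ± 0.10 (95% confidence interval -1.54 to -1.09, limma adjusted p = 0.00142). Of all tested genes 5.27% were called in this comparison, 0.890% higher and 4.38% lower. At an unadjusted p under 0.05 stood 6 of the 8 members and 22.1% of all genes. The control group is a lone library here, which the model assumes to vary like the others. The split of calls moved with scaling, from 16.9% higher to 46.8% under TMM, 42.8% under quantile normalization and 34.5% after rescaling to a total that leaves out mitochondrial genes and the top 100 genes. The Csf1r difference was called under each, at -1.16, -1.03 and -1.21. It stayed called when any 1 of the other libraries was left out, and with the library kept apart in the fit it was -1.32 with an adjusted p of 1.

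Without LPS, Csf1r stood at 81.2% of the control mean in depleted cells, -0.30 ± 0.08, with no overlap between the groups. It missed the threshold (adjusted p = 0.158), and 0 of the 8 members were called by limma (1, Csf1r, at an unadjusted p under 0.05), where 1.22% of genes were called, 0.489% higher and 0.729% lower. Under quantile normalization and under the rescaling the Csf1r difference was called, at -0.31 (adjusted p = 0.0196) and -0.33 (adjusted p = 0.0178). With the library kept apart it turned to 0.64.

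The fall of Csf1r after LPS was larger in depleted than in control cells by 1.02 ± 0.12 on the log2 scale (95% confidence interval of the difference -1.31 to -0.73, limma adjusted p = 0.0355). It was the 1 member called for a difference between the responses, where 0.226% of genes were called, 0.0948% higher and 0.131% lower. At an unadjusted p under 0.05 stood 3 of the 8 members and 17.3% of all genes. The call was held under the 3 scalings, at -0.88, -0.71 and -0.88. Among other settings, it was lost when any 1 of the 6 depleted libraries was left out (adjusted p of 0.0692 to 0.132), without the mean-variance trend (adjusted p = 0.0577), and with the library kept apart (-1.96, adjusted p = 0.715). In all, 31 genes passed this test, and 13 of them were higher. Under TMM 47 were higher and 40 lower, and under quantile normalization 25 and 14.

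Some macrophage markers also differed between the lines. Of the 8, 3 were lower in depleted cells without LPS, namely Fcgr1 (-0.73), Adgre1 (-0.67) and Itgam (-0.62), and 3 with LPS, namely Adgre1 (-0.73), Mpeg1 (-0.46) and Itgam (-0.44), and 0 were higher, where 0.729% and 4.38% of all tested genes were lower. Fcgr1 with LPS (0.20) and Cd68 without it (0.07) had the other sign and did not pass the test. The sum of the 8 given above is mostly Lyz2, which was not called between the lines (-0.10, adjusted p = 0.547, and -0.24, adjusted p = 0.105). The markers' part in the Csf1r result was not tested. Expressed within the family, where the total of a library drops out, Csf1r had 6.52 and 6.13 TPM per TPM of Csf2ra in control cells without LPS (5.10 in the library kept apart) and 4.90, 4.43 and 4.21 in depleted cells. With LPS the ratio was 0.774 in the control library and 0.337, 0.299 and 0.351 in the depleted ones. The depleted libraries lay below the control libraries at both times on this ratio too.

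**Figure D2:**
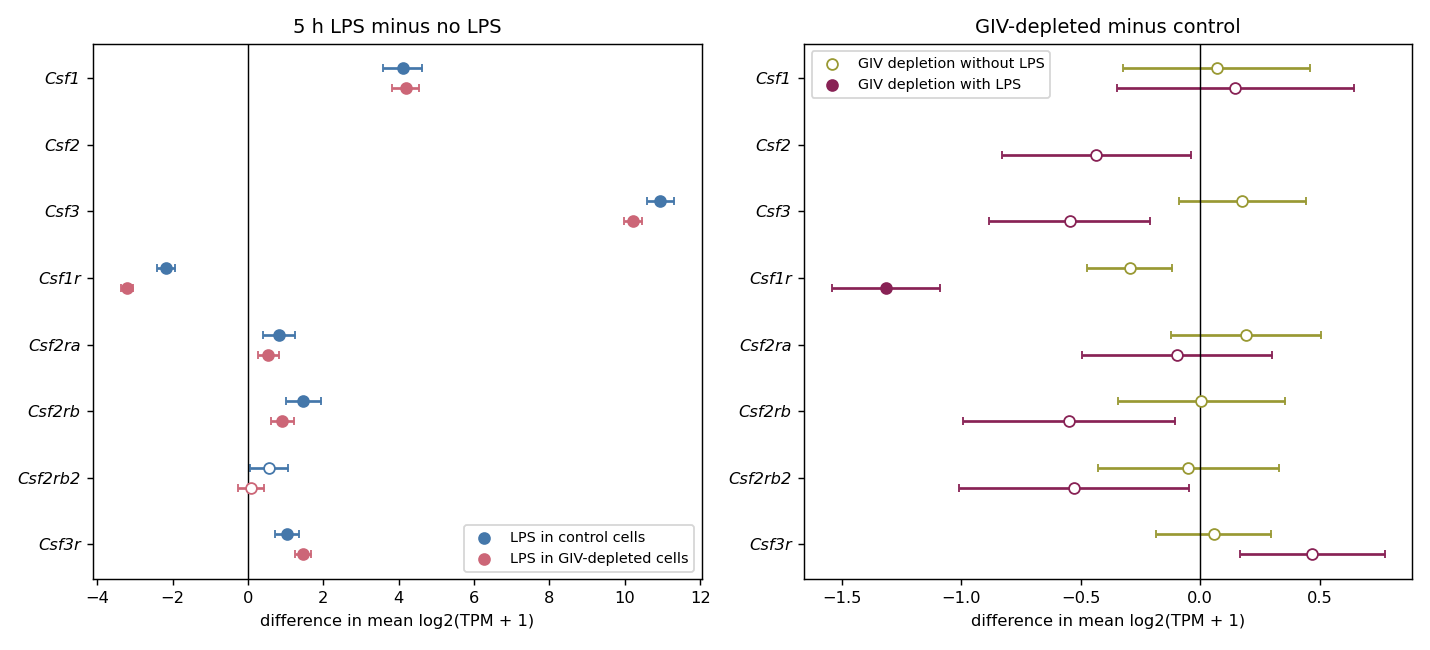
Differences in mean log2(TPM + 1) per member, LPS minus no LPS on the left and GIV-depleted minus control on the right, with 95% confidence intervals. Filled points have a limma adjusted p under 0.05 and open points do not. Csf2 is left out where a group is listed at 0. With LPS, Csf1r at -1.32 is the filled point on the right.

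The GM-CSF receptor chains rose. Csf2ra (ENSMUSG00000059326, chromosome 19, 61223957 to 61228429, minus strand), the ligand-binding alpha chain, had 70.3 and 88.2 TPM in control cells and 80.8, 93.4 and 97.0 TPM in depleted cells without LPS, and 13.7 TPM in the library kept apart. With LPS it had 140.3 TPM in the control library and 126.9, 149.3 and 119.2 TPM in the depleted ones. The control library lay inside the range of the depleted ones. The rises of 0.82 ± 0.18 and 0.54 ± 0.12 passed the test (limma adjusted p = 0.00530 and 0.00390). The lines differed by 0.19 without LPS (95% confidence interval -0.12 to 0.51) and by -0.10 with it (adjusted p = 0.790). With LPS the sign turned to 0.06, 0.03 and 0.02 under the 3 scalings.

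Csf2rb (ENSMUSG00000071713, chromosome 15, 78325752 to 78353847, plus strand), the signalling chain shared by the CSF2, IL-3 and IL-5 receptors, had 13.7 and 16.4 TPM in control cells and 17.9, 12.9 and 14.6 TPM in depleted cells without LPS, and 6.43 TPM in the library kept apart. It had 43.2 TPM in the control library with LPS against 25.9, 32.3 and 29.7 TPM in the depleted ones. The level rose 2.87-fold in control cells and 1.93-fold in depleted cells, by 1.47 ± 0.20 and 0.91 ± 0.13 on the log2 scale (limma adjusted p = 4.99e-04 and 3.78e-04). The depleted libraries with LPS all lay below the control library, which for a lone control library is only a description. The difference of -0.55 ± 0.19 missed the threshold (adjusted p = 0.144), as did the difference between the responses (-0.55, adjusted p = 0.296).

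Csf2rb2 (ENSMUSG00000071714, chromosome 15, 78282507 to 78305721, minus strand) lies 20030 bp from Csf2rb. Of the 31-base words in its 4 annotated transcripts, 28.6% also occur in those of Csf2rb, and 18.8% of the words of Csf2rb occur in Csf2rb2, so the assignment of reads between these near copies is uncertain. Csf2rb2 had 4.74 and 7.47 TPM in control cells and 5.75, 5.30 and 6.18 TPM in depleted cells without LPS, and 1.94 TPM in the library kept apart. It had 9.30 TPM in the control library with LPS and 6.70, 5.71 and 6.06 TPM in the depleted ones. Neither LPS difference passed (0.56 ± 0.22, limma adjusted p = 0.0570, and 0.08 ± 0.15, adjusted p = 0.613, 95% confidence interval -0.25 to 0.42). Both passed under TMM (0.95, adjusted p = 0.00398, and 0.59, adjusted p = 0.00382) and quantile normalization (1.07, adjusted p = 0.00203, and 0.75, adjusted p = 9.99e-04). The difference in control cells also passed after the rescaling (0.56, adjusted p = 0.0410) and without control replicate 3 (0.84, adjusted p = 0.00409). Csf2rb per Csf2rb2 was 2.89 and 2.20 in control cells and 3.12, 2.44 and 2.37 in depleted cells without LPS, and 4.64 against 3.86, 5.67 and 4.90 with LPS. In the library kept apart it was 3.31.

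Csf3r (ENSMUSG00000028859, chromosome 4, 126024550 to 126044440, plus strand), the G-CSF receptor, was the lowest receptor without LPS, at 2.01 and 2.33 TPM in control cells and 2.50, 2.32 and 2.07 TPM in depleted cells, and 0.520 TPM in the library kept apart. With LPS it had 5.50 TPM in the control library and 7.63, 8.09 and 8.29 TPM in the depleted ones. The rises were 1.04 ± 0.14 and 1.45 ± 0.09 (limma adjusted p = 4.21e-04 and 2.96e-06). Csf3r was thus the receptor chain whose depleted libraries with LPS all lay above the control library. That difference of 0.47 ± 0.13 missed the threshold (adjusted p = 0.0833) and passed it under TMM (0.62, adjusted p = 0.0415). The difference between the responses, 0.41, did not pass (adjusted p = 0.260).

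The makeup of the receptor set turned over with LPS. Csf1r took 83.5% and 82.5% of the summed TPM of the 5 receptor genes in control cells without LPS (75.6% in the library kept apart) and 78.7%, 78.4% and 77.3% in depleted cells. With LPS it took 35.4% in the control library and 20.4%, 18.6% and 20.4% in the depleted ones. Depleted libraries were lower than the tested control libraries at both times, while the library kept apart lay below the depleted ones without LPS. The sum itself went from 549 and 656 TPM in control cells and 503, 528 and 528 TPM in depleted cells to 307 TPM and to 210, 240 and 205 TPM with LPS. Csf2ra, second after Csf1r without LPS, came above it in all 4 libraries with LPS. Csf2ra per summed beta chains (Csf2rb and Csf2rb2) was 3.82 and 3.69 in control cells and 3.41, 5.12 and 4.66 in depleted cells without LPS, and 2.67 against 3.90, 3.93 and 3.33 with LPS. In the library kept apart this ratio was 1.63, below all of these, and the receptor sum was 92.3 TPM.

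**Figure D3:**
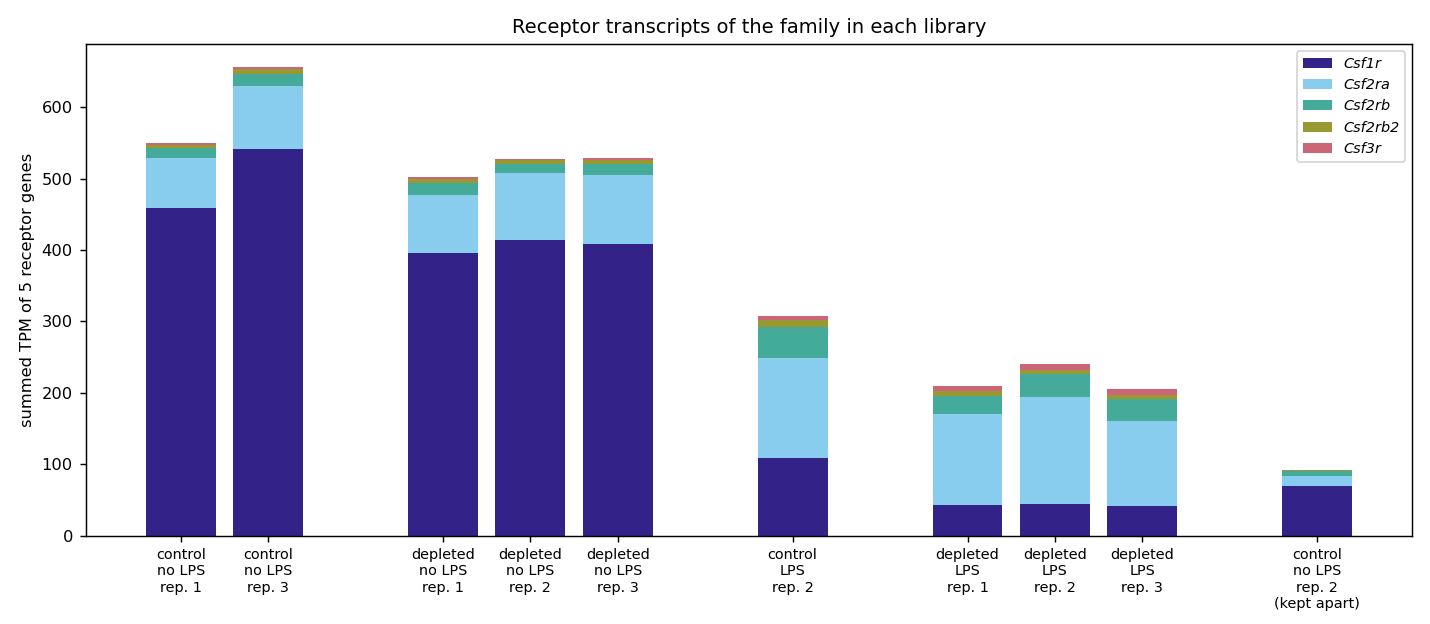
Summed TPM of the 5 receptor genes in each library, stacked by gene, with control replicate 2 without LPS at the right. Csf1r fills most of each bar without LPS and 35.4% or less of each bar with LPS.

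In order of TPM, control cells without LPS had Csf1r, Csf2ra, Csf2rb, Csf2rb2, Csf3r, Csf1, Csf3 and Csf2, and depleted cells had the same order. Neighbours overlapped for Csf3 and Csf2 in control cells and for Csf1 and Csf3 in depleted cells. With LPS the order in depleted cells was Csf3, Csf2ra, Csf1r, Csf2rb, Csf1, Csf2, Csf3r and Csf2rb2, with no overlap between neighbours. The lone control library had the same order with Csf2rb2 above Csf3r. Other ligands and chains of the family were near or at 0 in the 9 libraries. Il34, the other ligand of CSF1R, ran from 0 to 0.572 TPM, Il3, 15635 bp from Csf2, was listed at 0, as were Il5 and Il3ra, and Il5ra reached at most 0.0748 TPM. None of these 5 genes passed the filter.

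Genes of the pathway were counted from lists chosen with earlier results of these data known. Beside the LPS counts stand the 58.9% and 75.5% of all tested genes called in control and depleted cells, and beside those between the lines 1.22% without LPS and 5.27% with it. Among 12 tested genes of STAT output and cytokine feedback, which includes inhibitors that cytokine receptors induce against themselves, 10 rose and 2 fell with LPS in control cells, and 9 rose and 2 fell in depleted cells. The median log2 difference was 2.36 and 2.34. Socs3 rose by 7.02 in control and 7.51 in depleted cells, Pim1 by 3.90 and 3.87, and Cish by 3.85 and 3.66. Without LPS, Cish averaged 0.0112 TPM in control and 0.00312 TPM in depleted cells. Socs1, of the same list and named after its values were seen, averaged 0.439 and 0.314 TPM. Both passed the filter only through the libraries with LPS, so their calls follow from the filter. The size given for Cish is set by the 1 added to TPM. Among 25 genes of receptor-proximal signalling (kinases, adaptors and phosphatases next to the receptors), 11 rose and 7 fell in control cells, and 11 rose and 12 fell in depleted cells, with medians of 0.21 and -0.03. Src rose by 3.49 and 2.99, and Jak2, the kinase of the CSF2 and CSF3 receptors, by 3.11 and 3.26. The list had 15 higher and 3 lower in control cells under TMM, and its median in depleted cells turned positive, up to 0.53, so its balance is set by scaling. GIV depletion called 0 of the 25 genes in either condition, here or under the 3 scalings, which in a list of this size is near the share over all genes.

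Among 13 regulators of Csf1r transcription, 6 rose and 4 fell in control cells, and 5 rose and 5 fell in depleted cells (up to 8 higher under other scalings), a share called in depleted cells that is near the 75.5% of all genes. Cebpa, a myeloid transcription factor, fell by 3.22 in control cells and fell by 3.40 in depleted cells, Fli1 fell by 1.88 and fell by 1.67, and Mef2c fell by 1.82 and fell by 2.09, while Cebpb rose by 2.01 and 1.61. Spi1, which encodes PU.1, was named after its values were seen. It was higher with LPS in control cells under each scaling (0.12 to 0.83), and was called in 3 of 4, the main fit included. In depleted cells its sign turned with scaling (-0.14 to 0.66, called in 2).

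Among 19 regulators of Csf2 and Csf3 transcription and mRNA decay, 10 rose and 5 fell in control cells, and 10 rose and 6 fell in depleted cells. Nfkbiz, a nuclear cofactor of NF-kappaB, rose by 5.11 and 5.41. The decay factors Zfp36 and Zc3h12a rose by 4.60 and 4.97 and by 4.06 and 3.69, alongside the ligand transcripts. The list did not rise as a group. Zfp36l2 and Khsrp, named after their values were seen, fell in both lines and were called under each scaling. In control cells their differences ran from -2.54 to -2.04 and from -0.95 to -0.47 across scalings. Between the lines, Nfatc1 (1.13), Zfp36l1 (0.77) and Fosl2 (0.55) were higher in depleted cells without LPS. With LPS, Zfp36l1, a relative of Zfp36, was higher by 1.31 ± 0.15 (adjusted p = 0.00684), and Jun, an AP-1 subunit, was lower by 0.88 ± 0.16 (adjusted p = 0.0261).

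Among 9 genes of receptor shedding and turnover, 2 rose and 1 fell in control cells, and 2 rose and 4 fell in depleted cells. The share called lies below the 58.9% over all genes in control cells and is near the 75.5% in depleted cells. Rhbdf2, which carries the sheddase ADAM17 to the surface, rose by 2.62 and 2.40, and Adam10 fell by 1.35 and fell by 1.57. Under TMM 6 genes of this list were higher and 1 lower in each line. Of all genes, 26.1% were then higher and 26.6% lower in control cells, and 31.4% and 35.6% in depleted cells. The balance of this list and its share called thus also move with scaling. With LPS, 3 were lower in depleted cells: Adam17, the protease known to shed CSF1R (-0.66 ± 0.06, limma adjusted p = 0.00286), Lamp1 (-0.64) and Adam10 (-0.45, adjusted p = 0.0181, against 0.0514 under TMM and 0.105 under quantile normalization). Of the STAT list, Stat5a, a transducer of CSF2 signals, was higher in depleted cells with LPS (0.86 ± 0.13, adjusted p = 0.0137), and Mcl1, a survival gene, was lower (-0.53 ± 0.11, adjusted p = 0.0345, against 0.0563 under TMM). No gene of the 5 lists was called for a difference between the LPS responses in this fit, and Stat5a was called under 2 of the 3 scalings.

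**Figure D4:**
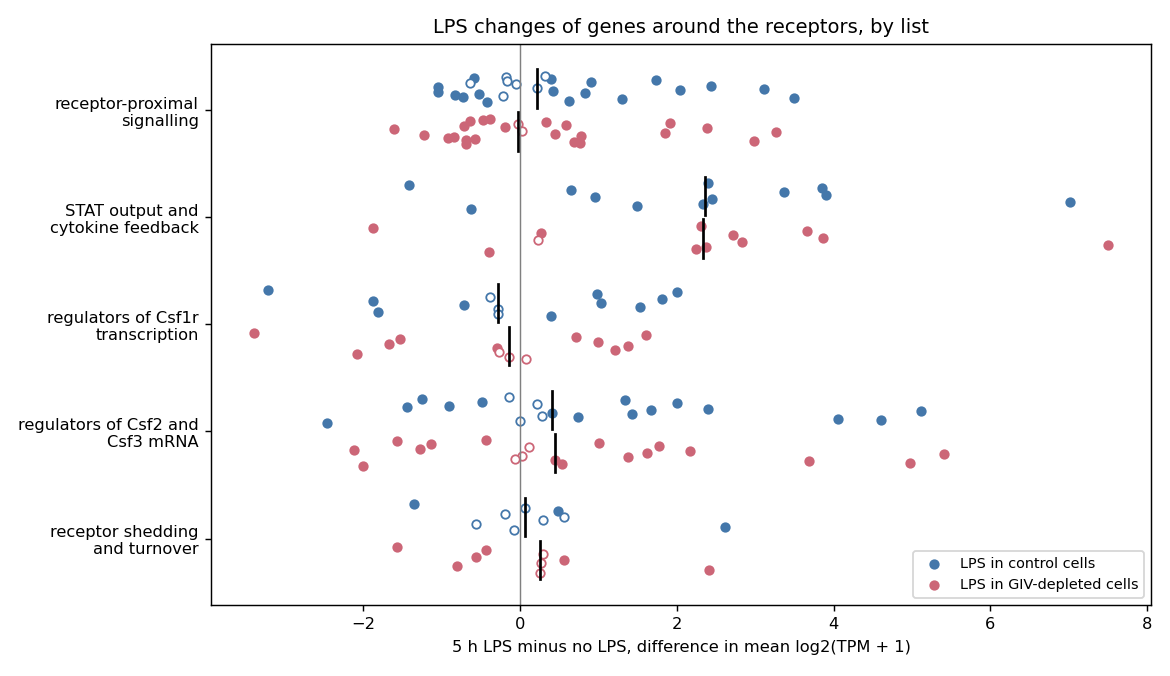
Difference in mean log2(TPM + 1) with LPS for each tested gene of 5 lists around the receptors, in control and GIV-depleted cells. Filled points have a limma adjusted p under 0.05, open points do not, and black bars are list medians. The STAT and feedback list lies mainly to the right of 0 (medians 2.36 and 2.34), and the other lists spread to both sides.

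The genes whose pattern was most like each member were found by the Euclidean distance of log2(TPM + 1), each gene centred on its own mean, over 9 libraries. These libraries share the contrast with and without LPS, which most of the distance reflects. Nearest to Csf1r were Dhcr7, an enzyme of cholesterol synthesis (0.42), Prc1, of cell division (0.48), and the myeloid factor Lyl1 (0.61). Nearest to Csf1 were Gadd45b (0.50), Phlda1 (0.51) and Cd274, which encodes PD-L1 (0.53). Nearest to Csf2 were Zc3h12a (0.31), Olfr56 (0.36) and Stk40 (0.40). Nearest to Csf3 were Saa3 (1.08), Ccl5 (1.31) and Il1a (1.57), all genes of the inflammatory response. The distance grows with the size of a gene's change, so distances are not compared between members. Among the receptors, Csf3r was nearest to Cdk2ap2 (0.28), St3gal4 (0.30) and Fbxl5 (0.32), Csf2ra to Slc12a4 (0.20), Kdm4a (0.22) and Zfand3 (0.24), Csf2rb to Gm20186 (0.28), Slc3a2 (0.42) and Sqstm1 (0.44), and Csf2rb2 to Lasp1 (0.31), Col4a3bp (0.34) and Mcl1 (0.34).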

How the data were processed

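Libraries were stranded, from total RNA, and read as pairs of 100 bases, per the labels' protocols. The authors deposited log2 values per gene, log2(TPM + 1), made with kallisto 0.45.0 on GRCm38, per the submitters' processing notes; the annotation is not given in the sources used here. TPM keeps no read total, so depth and counting precision are unknown. Of 11 labelled samples, control replicate 3 with LPS is not analysed here, and no column was left unmapped (0).

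Genes with a log2 value of at least 1 in at least 2 of 9 libraries (13711) were tested with limma 3.58.1 in R 4.3.3, as 4 group means with a mean-variance trend and 5 residual degrees of freedom. Each of 5 comparisons had its own Benjamini-Hochberg adjustment, with a threshold of 0.05. Leaving out control replicate 2 without LPS, the members and the lists were chosen with earlier results of these data known. Named genes were the members, Ccdc88a, up to 4 called genes of each list with the largest change and the 3 nearest genes to each member; some named genes are not reported here. Of 3 list symbols with several identifiers, the one with the higher mean TPM was used.

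Alternatives were other filters, a block for the set number, a pseudocount of 0.1, TMM (trims of 30% and 5%), quantile normalization, rescaling, other eBayes settings, only the groups compared, and leaving out each library. The script was tested on simulated data. Positions and 3′ untranslated regions came from GENCODE M21 and promoters from RefSeq (GRCm38.p6). Figures were drawn with matplotlib 3.10.9.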

Additional observations from a re-analysis of the deposited data

Results flagged for a closer look

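The LPS response of Csf1r differed between the lines by the test of the difference itself: -1.02 on the log2 scale (limma adjusted p = 0.0355), with Csf1r at 21.7% of its level without LPS in control cells and 10.6% in depleted cells. The control response rests on 1 library with LPS, and the call was lost when any 1 of the 6 depleted libraries was left out.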

How the results depend on the processing

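Depth is unknown, 1 library stands for control cells with LPS, and without it 3 of the comparisons have no value. With control replicate 2 without LPS added, 3 members were called for LPS in control cells, 0 for depletion with LPS and 0 for the difference of responses. TMM gave 2 called for depletion with LPS (Csf1r and Csf3r). Quantile normalization and the rescaling gave 1 each without LPS (Csf1r). eBayes without the trend gave 0 for the difference, and the fit of only the groups compared gave 4 for LPS in control cells, where the 3 ligands, high in 1 library, fell to the filter and were not tested (that fit was not run for the difference, which uses all groups). Leaving out 1 library gave 7 to 8 for LPS in control cells, 7 to 7 in depleted cells, 0 to 0 and 1 to 1 for depletion without and with LPS, and 0 to 1 for the difference.

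Signs that turned were of differences that had missed the threshold. With the library added these were Csf1r (0.64), Csf2rb2 (0.36) and Ccdc88a (0.22) for depletion without LPS and Ccdc88a (0.19) for LPS in control cells. Under scalings they were Csf2ra with LPS (0.061, 0.032 and 0.020), Csf2rb without LPS (-0.0012 under quantile normalization and -0.030 after rescaling) and Ccdc88a for LPS in control cells (0.029 under quantile normalization). Leaving out 1 library also turned signs, with ranges without LPS of -0.119 to 0.128 for Csf2rb, -0.017 to 0.129 for Csf3r, -0.331 to 0.232 for Csf2rb2 and -0.092 to 0.177 for Csf1, and -0.029 to 0.240 for the Csf1 difference of responses. The cause was not tested. Of the values for single genes under alternatives, 791 kept direction and side of the threshold, 12 passed it newly, 19 lost it and 17 turned sign.

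Samples with the same set number correlated by at most 0.0972 in their deviations from group means, below the 0.1 set for treating the numbers as pairs. Among depleted cells each library correlated best with that of its own number, a hint from the data only, and whether the numbers mark shared batches is not stated. With the set number as a replicate block 0 members were called for the difference of responses (Csf1r -0.96, adjusted p = 0.221), and Csf2ra with LPS was 0.023.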
